A study of Mus musculus with 10 samples.

Results

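The genes described here build the kinetochore and guard chromosome attachment in dividing cells: 45 genes of the centromere, the inner and outer kinetochore, the spindle checkpoint, the Ska complex, the shugoshins and the chromosomal passenger complex. They were chosen by name, with earlier results of these data known, and all 45 were found among the 55276 genes of the deposited table. RNA was sequenced from epithelial cells of the stomach corpus, its acid-secreting body, taken from C57BL/6 mice aged 6 to 8 weeks. Every mouse carried the reporter Iqgap3-2A-tdTomato, in which the red fluorescent protein tdTomato is made along with Iqgap3, a scaffold protein, and the mice were either wild type for the transcription factor gene Runx3 (WT) or carried the R122C allele of it. Sorting of living EpCAM-positive cells by tdTomato gave IQ3pos, the cells high in Iqgap3, and IQ3neg, those with little or none. WT mice gave 3 libraries of each fraction and R122C mice 2 of each. Cells of 3 mice went into each library, or of 4 in WT replicate 2 of both fractions. The titles also carry a code of unstated meaning, which is shared by both fractions of a replicate and across genotypes only by WT replicate 2 and R122C replicate 1. The sources used here do not say whether R122C mice had 1 or both alleles changed.

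The kinetochore is the protein assembly that joins a chromosome to the spindle. It is laid down on centromeric chromatin marked by the histone variant CENP-A, from which a constitutive inner layer, the CCAN, recruits an outer layer, the KMN network, that grips microtubules. Until every chromosome is attached, checkpoint proteins at the kinetochore hold back the anaphase-promoting complex, while Aurora B and its partners in the passenger complex release faulty attachments. Many of these genes are transcribed mainly in G2 and mitosis, so their RNA is high where cells divide, and in the corpus that is chiefly the isthmus of the gland.

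Transcription of many such genes is known to depend on a cell cycle genes homology region (CHR) near the start site, the binding place of the MuvB complexes, together with CCAAT boxes upstream that bind NF-Y. Promoter windows from RefSeq on GRCm38.p6 matched 40 of the 45 genes, and 8 of them are printed because they set genes that differed between the fractions beside genes that did not pass the test. Each runs 5′ to 3′ on the strand of the gene, from 120 bases before the annotated start through its first 30 bases, with CHR and CCAAT motifs on either strand in capitals. The first 5 belong to genes that were higher in IQ3pos, and all 5 hold both motifs. They are not typical of such genes, since only 8 of the 20 with a window held both near the start. Birc5, Nuf2 and Dsn1, also higher in IQ3pos but not printed, held neither CHR nor CCAAT in the longer windows described below. Ttk holds both motifs but missed the threshold, and Zwint and Cenpo hold no CHR and did not pass.
Spc25 (chr2:69206184-69206333, minus strand): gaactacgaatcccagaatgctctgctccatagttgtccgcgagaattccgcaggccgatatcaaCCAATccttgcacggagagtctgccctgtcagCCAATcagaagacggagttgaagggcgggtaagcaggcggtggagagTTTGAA
Bub1 (chr2:127831830-127831979, minus strand): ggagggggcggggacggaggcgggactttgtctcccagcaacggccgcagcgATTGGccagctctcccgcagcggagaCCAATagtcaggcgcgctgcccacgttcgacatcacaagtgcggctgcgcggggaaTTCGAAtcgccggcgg
Cdca8 (chr4:124936888-124937037, minus strand): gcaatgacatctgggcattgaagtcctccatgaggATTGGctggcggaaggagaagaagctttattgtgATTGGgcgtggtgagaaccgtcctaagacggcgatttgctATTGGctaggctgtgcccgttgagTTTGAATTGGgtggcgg
Cenpa (chr5:30666766-30666915, plus strand): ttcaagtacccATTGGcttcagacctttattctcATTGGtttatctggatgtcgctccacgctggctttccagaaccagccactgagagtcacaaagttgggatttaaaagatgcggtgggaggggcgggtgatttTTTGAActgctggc
Cenpf (chr1:189688057-189688206, minus strand): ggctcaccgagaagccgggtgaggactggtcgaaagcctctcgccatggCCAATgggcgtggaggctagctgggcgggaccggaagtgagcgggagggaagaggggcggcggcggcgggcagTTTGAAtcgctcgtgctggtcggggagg
Ttk (chr9:83834569-83834718, plus strand): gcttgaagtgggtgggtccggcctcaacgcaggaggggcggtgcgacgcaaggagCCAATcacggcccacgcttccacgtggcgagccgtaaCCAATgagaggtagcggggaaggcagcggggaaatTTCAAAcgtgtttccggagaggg
Zwint (chr10:72654726-72654875, plus strand): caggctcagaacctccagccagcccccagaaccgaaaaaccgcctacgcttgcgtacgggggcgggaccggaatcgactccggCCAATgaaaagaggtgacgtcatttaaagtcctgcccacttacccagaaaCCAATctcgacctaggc
Cenpo (chr12:4233936-4234085, minus strand): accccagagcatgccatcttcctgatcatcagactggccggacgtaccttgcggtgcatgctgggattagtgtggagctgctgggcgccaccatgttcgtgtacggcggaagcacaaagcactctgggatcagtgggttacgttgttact

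The totals by which libraries were scaled, recovered from the CPM steps, ran from 47.4 M to 264.8 M. So 1 CPM, the unit of reads scaled to library size, stood for 47.4 to 264.8 reads. Listed values summed to 1036670 to 1053760 CPM a library, so these scaling totals lie below the counted reads. The table lists log2 CPM and gives 0 to every gene below 1 CPM, so a 0 here means below that floor and a difference against it depends on the floor. One library stood apart: WT IQ3neg replicate 1 listed 16 of the 45 genes at 0, against 0 to 3 in each of the others, and each of the 45 listed at 0 in any library was also at 0 in that one. Epithelial markers (Epcam, Cdh1, Krt8, Krt18 and Cldn18) summed to 8232 to 13181 CPM in 9 libraries and to 3099 CPM in WT IQ3neg replicate 1. The same library had the highest sum of immune markers. It also had the most of the pancreatic acinar marker Clps, at 18.3 log2 CPM against 16.6 to 17.0 in the other IQ3neg libraries. Cela1, a marker of the same list, went the other way, at 1.40 in that library against 5.24 to 7.45 in all others. Immune markers summed to 0 to 378 CPM with Cd3e at 0 throughout, fibroblast and muscle markers to at most 27.5 CPM, and endothelial markers to at most 7.95 CPM. Iqgap3 itself was listed at 0 in 7 libraries, and the highest of the other 3 was WT IQ3pos replicate 2 at 3.16 log2 CPM, so its transcript does not check the sort. Exons of 13 of the 45 genes overlap exons of another gene on the opposite strand in GENCODE, and whether reads were counted by strand is not stated, so reads of such pairs cannot be told apart. Runx3 was listed at 0 in all but WT IQ3neg replicates 2 and 3, at 1.27 and 1.04, and its level bears nothing on a point mutation.

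Most kinetochore genes were higher in the Iqgap3-high than in the Iqgap3-low fraction, as a group median and, for 25 of the 45, in the test of single genes. The median of the 45 genes was 4.84, 5.92 and 5.75 log2 CPM in the WT IQ3pos libraries and 5.99 and 5.26 in R122C IQ3pos, against 2.11, 3.75 and 3.66 in WT IQ3neg and 3.80 and 4.05 in R122C IQ3neg. Every IQ3pos median lay above every IQ3neg median. Their summed level was 2228 to 5209 CPM in IQ3pos libraries and 396 to 1372 CPM in IQ3neg libraries. In sorted bulk cells, a larger share of dividing cells and more of these RNAs per cell cannot be told apart. The division markers Mki67 and Top2a followed the same order, with Mki67 at 7.28 to 8.94 log2 CPM in IQ3pos and 4.88 to 6.17 in IQ3neg, and Top2a at 8.42 to 9.52 and 4.79 to 6.39.

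**Figure D1:**
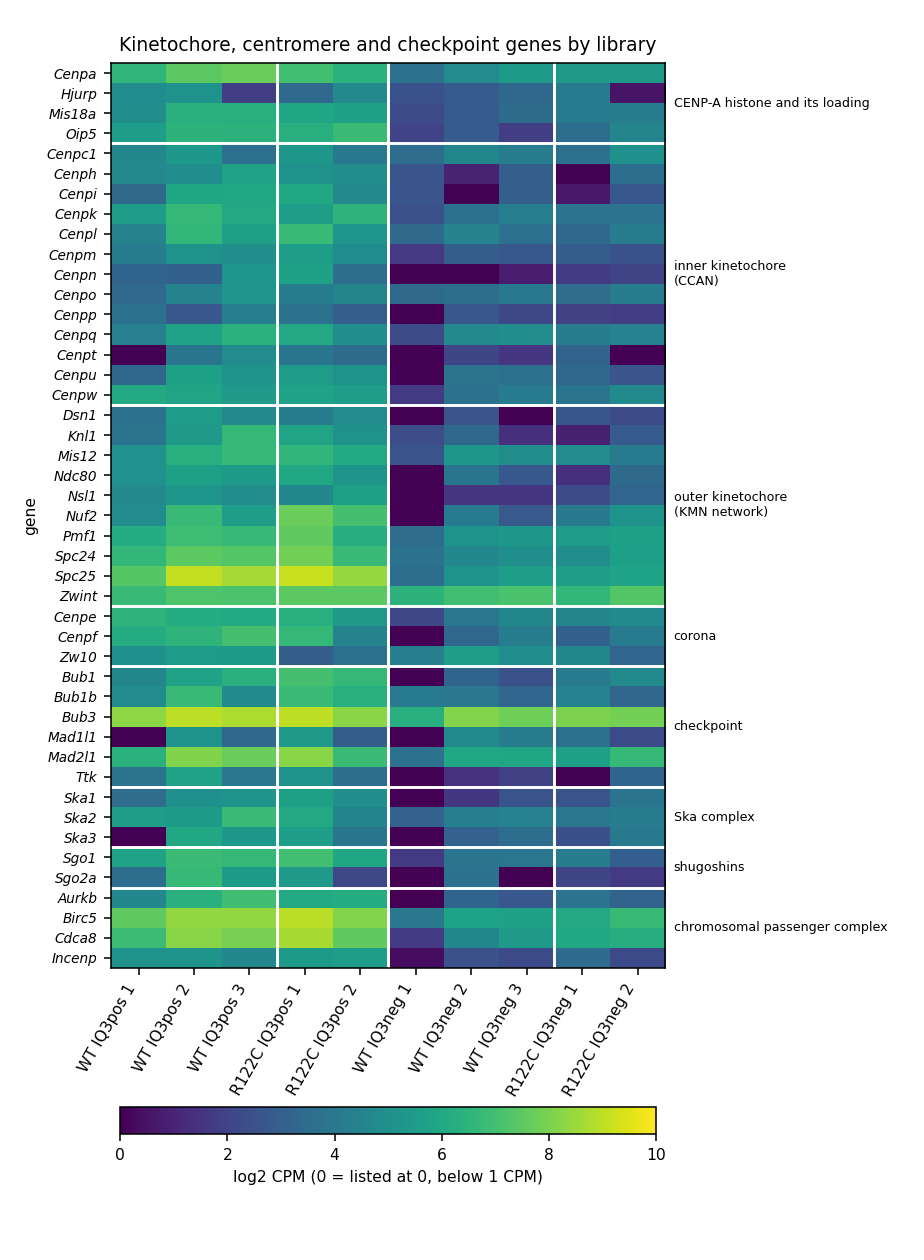
Level of each of the 45 genes (rows, grouped by role) in each of the 10 libraries (columns) as log2 CPM, with dark cells for 0, meaning below 1 CPM. The 5 IQ3pos libraries on the left are brighter than the 5 IQ3neg libraries for most rows, and the WT IQ3neg replicate 1 column holds 16 genes at 0.

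**Figure D2:**
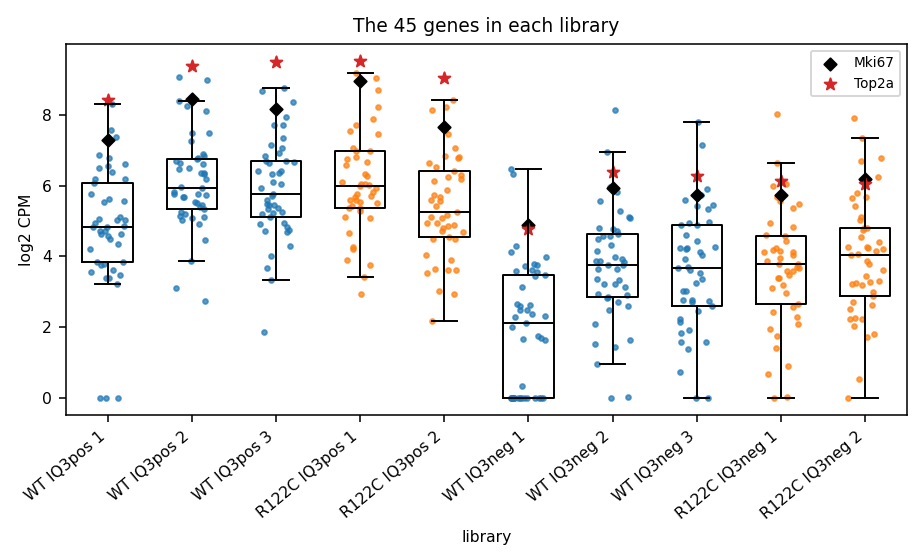
The 45 genes in each library as log2 CPM, 1 point per gene, blue for WT and orange for R122C, with boxes for the quartiles and median, whiskers to the farthest value within 1.5 box lengths, and the division markers Mki67 (diamond) and Top2a (star). Member medians lie between 4.84 and 5.99 in IQ3pos and between 2.11 and 4.05 in IQ3neg.

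The fractions were compared in a limma model over all 17155 genes above the floor in at least 2 libraries, and all 45 kinetochore genes were among them. Averaged over the genotypes, 25 of the 45 were higher in IQ3pos at an adjusted p under 0.05 and 0 were lower, where 1.67% of all tested genes were called higher and 2.57% lower. Their median difference was 2.36 on the log2 scale, against 0.11 for all genes, and 44 of the 45 differences were above 0. In WT alone 14 were higher and 0 lower (background 0.606% higher and 1.42% lower), with a median of 2.69. In R122C alone, with 2 libraries a fraction, 0 passed in limma, where 0.0291% of all genes were called higher and 0.291% lower. There 21 of the 45 had an unadjusted p under 0.05, where 1389 of 17155 tested genes did, and the median difference was 2.09. The 5 IQ3pos libraries all lay above the 5 IQ3neg libraries for 29 of the 45 genes, compared with 5.74% of all tested genes, and 0 lay below in full, compared with 3.18%. Within WT 33 lay above in full and 0 below (13.2% and 8.07% of all tested genes), and within R122C 39 and 0 (21.7% and 14.6%). The 25 calls of the averaged comparison changed in number as each library was left out, while the median difference stayed between 2.14 and 2.56. Their number was 5 without R122C IQ3pos replicate 2, 6 without R122C IQ3pos replicate 1 and 6 without R122C IQ3neg replicate 1. It was 8 without WT IQ3pos replicate 2, 12 without WT IQ3pos replicate 3 and 13 without R122C IQ3neg replicate 2. Without WT IQ3neg replicate 1, the library that stood apart, it was 27. Shares of all tested genes called in these fits are not given here. The 14 calls in WT became 1 without WT IQ3pos replicate 2, 2 without WT IQ3pos replicate 3, 3 without WT IQ3neg replicate 2, 7 without either R122C IQ3pos library, 8 without either R122C IQ3neg library and 10 without WT IQ3neg replicate 1.

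**Figure D3:**
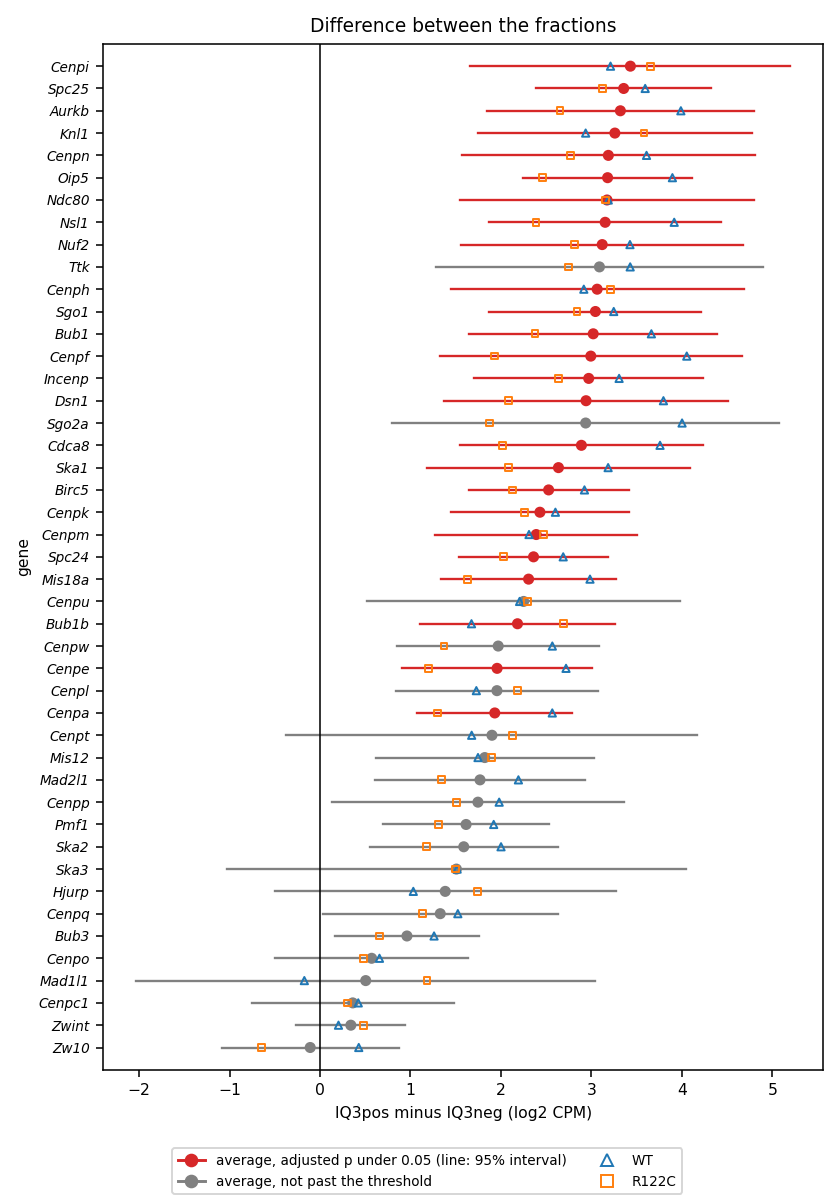
IQ3pos minus IQ3neg in log2 CPM for each gene, with the average over the genotypes as a filled circle and its 95% interval from limma as a line (red for an adjusted p under 0.05, grey otherwise), WT as a triangle and R122C as a square. The 25 red genes lie between 1.93 and 3.43, and Zw10 at the bottom, at -0.11, is the only gene with an average below 0.

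Of the 4 genes that carry and load CENP-A, 3 passed when averaged over the genotypes. Cenpa, the centromeric histone itself (GRCm38 chr5:30666777-30674830, plus strand), stood at 6.54, 7.48 and 7.70 log2 CPM in WT IQ3pos, 6.97 and 6.40 in R122C IQ3pos, 3.75, 4.81 and 5.45 in WT IQ3neg, and 5.36 and 5.42 in R122C IQ3neg. The lowest IQ3pos value, 6.40, was above the highest IQ3neg value, 5.45, and the difference was 1.93 ± 0.39 (SE, adjusted p = 0.0191). Oip5, which pairs with Mis18a in the complex that licenses new CENP-A, stood at 5.57, 6.48 and 6.42 log2 CPM in WT IQ3pos, 6.27 and 6.80 in R122C IQ3pos, 2.02, 2.92 and 1.85 in WT IQ3neg, and 3.60 and 4.55 in R122C IQ3neg. No library of the fractions overlapped, and the difference was 3.18 ± 0.43 (SE, adjusted p = 0.00197). It was also called in WT (3.90, adjusted p = 0.00423), where it was the only gene of the 45 to pass in each alternative and without any 1 library. An exon of Oip5 overlaps one of Nusap1, another mitotic gene, on the opposite strand. Mis18a, its partner, was at 4.94, 6.36 and 6.33 log2 CPM in WT IQ3pos, 5.92 and 5.72 in R122C IQ3pos, 2.29, 2.84 and 3.54 in WT IQ3neg, and 4.14 and 4.25 in R122C IQ3neg, again without overlap, and differed by 2.31 ± 0.44 (SE, adjusted p = 0.014). Hjurp, the chaperone that deposits CENP-A, did not pass. Its values were 4.86, 5.09 and 1.87 log2 CPM in WT IQ3pos, 3.43 and 4.72 in R122C IQ3pos, 2.50, 2.85 and 3.37 in WT IQ3neg, and 4.12 and 0.55 in R122C IQ3neg, so that WT IQ3pos replicate 3 was lower than 4 of the 5 IQ3neg libraries, and the difference was 1.38 ± 0.86 (SE, adjusted p = 0.393).

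In the inner kinetochore 5 of 13 genes passed when averaged and 1 in WT (Cenpk), with an averaged median difference of 1.97. Those called, Cenpk, Cenpm, Cenpn, Cenpi and Cenph, include the whole CENP-H, CENP-I, CENP-K and CENP-M subcomplex and CENP-N, which reads CENP-A nucleosomes. Cenpk was at 5.54, 6.64 and 6.03 log2 CPM in WT IQ3pos, 5.59 and 6.52 in R122C IQ3pos, 2.50, 3.64 and 4.27 in WT IQ3neg, and 3.80 and 3.80 in R122C IQ3neg. The fractions did not overlap, with a difference of 2.43 ± 0.45 (SE, adjusted p = 0.0121), although its exons overlap those of Ppwd1 on the opposite strand. Cenpm was at 4.22, 5.15 and 4.93 log2 CPM in WT IQ3pos, 5.55 and 4.87 in R122C IQ3pos, 1.65, 2.95 and 2.77 in WT IQ3neg, and 2.96 and 2.53 in R122C IQ3neg, with the lowest IQ3pos library at 4.22 and the highest IQ3neg library at 2.96, a difference of 2.39 ± 0.51 (SE, adjusted p = 0.0239). Cenpi was at 3.47, 5.92 and 5.94 log2 CPM in WT IQ3pos, 5.99 and 4.69 in R122C IQ3pos, 2.64, 0.032 and 3.02 in WT IQ3neg, and 0.67 and 2.72 in R122C IQ3neg. Its lowest IQ3pos library, WT replicate 1, was at 3.47 and its highest IQ3neg library, also of WT, at 3.02, and the difference of 3.43 ± 0.81 (SE, adjusted p = 0.0359) was the largest of the 45. Cenph was at 4.72, 4.91 and 5.75 log2 CPM in WT IQ3pos, 5.13 and 4.94 in R122C IQ3pos, 2.65, 0.96 and 3.02 in WT IQ3neg, and 0.034 and 3.61 in R122C IQ3neg, without overlap but with IQ3neg values spread from 0.034 to 3.61, and differed by 3.06 ± 0.74 (SE, adjusted p = 0.0394). Cenpn was at 3.22, 3.11 and 5.25 log2 CPM in WT IQ3pos, 5.71 and 3.62 in R122C IQ3pos, 0, 0 and 0.75 in WT IQ3neg, and 1.74 and 2.05 in R122C IQ3neg. Both 0 values were in WT IQ3neg, so its difference of 3.19 ± 0.74 (SE, adjusted p = 0.0337) depends on the floor. Among the other 8, the differences ran from 0.36 (Cenpc1) to 2.25 (Cenpu), and Cenpc1, Cenpo, Cenpq, Cenpt and Cenpu overlapped between the fractions. Cenpc1, which bridges CENP-A chromatin and the outer kinetochore, and Cenpo had close ranges: 3.67 to 5.34 in IQ3pos against 3.59 to 5.04 in IQ3neg for the first, and 3.40 to 5.23 against 3.45 to 4.22 for the second.

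In the outer kinetochore 7 of 10 genes passed when averaged and 3 in WT (Spc25, Spc24 and Nsl1), with an averaged median of 3.03. Spc25 and Spc24 form the end of the NDC80 complex that docks on the chromosome side. Spc25 (GRCm38 chr2:69193895-69206194, minus strand) stood at 7.38, 9.07 and 8.66 log2 CPM in WT IQ3pos, 9.17 and 8.41 in R122C IQ3pos, 3.62, 5.12 and 5.59 in WT IQ3neg, and 5.56 and 5.79 in R122C IQ3neg. The lowest IQ3pos library, WT replicate 1, was above the highest IQ3neg library, R122C replicate 2, and the averaged difference of 3.36 ± 0.44 (SE, adjusted p = 0.00166) amounts to 10.2-fold. Spc24 was at 6.60, 7.49 and 7.34 log2 CPM in WT IQ3pos, 7.87 and 6.77 in R122C IQ3pos, 3.78, 4.63 and 4.96 in WT IQ3neg, and 4.93 and 5.64 in R122C IQ3neg. It too separated the fractions without overlap, by 2.36 ± 0.38 (SE, adjusted p = 0.00563). The other end of the complex, which holds the microtubule, is made of Ndc80 and Nuf2. Ndc80 was at 5.04, 5.68 and 5.47 log2 CPM in WT IQ3pos, 6.01 and 5.16 in R122C IQ3pos, 0, 3.88 and 2.75 in WT IQ3neg, and 1.41 and 3.44 in R122C IQ3neg. Nuf2 was at 4.84, 6.76 and 5.60 log2 CPM in WT IQ3pos, 7.70 and 7.07 in R122C IQ3pos, 0, 4.15 and 2.78 in WT IQ3neg, and 4.04 and 5.10 in R122C IQ3neg. Ndc80 separated the fractions in full, whereas for Nuf2 the highest IQ3neg library (R122C replicate 2) passed the lowest IQ3pos library (WT replicate 1), and the differences were 3.17 ± 0.74 (SE, adjusted p = 0.0344) and 3.12 ± 0.72 (SE, adjusted p = 0.0317). Both rest partly on a 0 in WT IQ3neg replicate 1.

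Of the Mis12 complex, which anchors NDC80, Nsl1 and Dsn1 passed. Nsl1 was at 4.70, 5.24 and 4.92 log2 CPM in WT IQ3pos, 4.66 and 5.67 in R122C IQ3pos, 0, 1.53 and 1.59 in WT IQ3neg, and 2.29 and 3.26 in R122C IQ3neg, with no overlap and the highest IQ3neg value at 3.26 in R122C, a difference of 3.15 ± 0.59 (SE, adjusted p = 0.0127). Dsn1 was at 3.79, 5.50 and 4.71 log2 CPM in WT IQ3pos, 4.26 and 4.81 in R122C IQ3pos, 0, 2.61 and 0 in WT IQ3neg, and 2.67 and 2.23 in R122C IQ3neg, and differed by 2.94 ± 0.72 (SE, adjusted p = 0.0407). Its 0 values were both in WT IQ3neg, and the fractions did not overlap. Mis12 and Pmf1 reached 5.05 to 6.70 and 6.18 to 7.55 in IQ3pos against 2.61 to 5.29 and 3.57 to 5.68 in IQ3neg, but did not pass. Knl1, the scaffold that recruits checkpoint kinases, was at 3.84, 5.39 and 6.67 log2 CPM in WT IQ3pos, 5.83 and 5.11 in R122C IQ3pos, 2.36, 3.34 and 1.39 in WT IQ3neg, and 0.90 and 2.87 in R122C IQ3neg, without overlap, and differed by 3.26 ± 0.69 (SE, adjusted p = 0.0232). Zwint, its partner protein, was high in every library, from 6.77 to 7.47 in IQ3pos and from 6.46 to 7.34 in IQ3neg. These ranges overlapped, and Zwint did not pass.

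Among the corona genes, which form the outermost layer before attachment, Cenpe and Cenpf passed when averaged and Zw10 did not. Cenpe, a kinesin that carries chromosomes to the spindle middle, was at 6.51, 6.18 and 6.10 log2 CPM in WT IQ3pos, 6.32 and 5.42 in R122C IQ3pos, 2.11, 3.92 and 4.60 in WT IQ3neg, and 4.57 and 4.79 in R122C IQ3neg. The gap between the fractions was narrow, from 4.79 to 5.42, and the difference was 1.96 ± 0.48 (SE, adjusted p = 0.0425). Cenpf, a large coiled-coil protein, was at 6.19, 6.50 and 7.06 log2 CPM in WT IQ3pos, 6.67 and 4.48 in R122C IQ3pos, 0, 3.35 and 4.23 in WT IQ3neg, and 3.12 and 4.16 in R122C IQ3neg. It differed by 2.99 ± 0.77 (SE, adjusted p = 0.0496), just inside the threshold, and the R122C replicate 2 pair was separated by only 0.32. Zw10, a corona subunit that also works in vesicle transport in cells that do not divide, overlapped fully, at 2.95 to 5.54 in IQ3pos and 3.27 to 5.57 in IQ3neg.

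Of the 6 checkpoint genes, Bub1 and Bub1b passed when averaged (Bub1 in WT). Bub1, the kinase that places other checkpoint proteins, was at 4.57, 5.76 and 6.34 log2 CPM in WT IQ3pos, 7.05 and 6.64 in R122C IQ3pos, 0, 3.22 and 2.47 in WT IQ3neg, and 4.14 and 4.79 in R122C IQ3neg. The WT fractions did not overlap, nor did the R122C fractions, but the highest R122C IQ3neg library exceeded the lowest WT IQ3pos library, and the difference was 3.02 ± 0.63 (SE, adjusted p = 0.0211). Bub1b, which encodes the BubR1 part of the mitotic checkpoint complex, was at 4.83, 6.78 and 4.75 log2 CPM in WT IQ3pos, 6.81 and 6.30 in R122C IQ3pos, 4.12, 3.97 and 3.25 in WT IQ3neg, and 4.42 and 3.30 in R122C IQ3neg, without overlap, and differed by 2.18 ± 0.49 (SE, adjusted p = 0.0302). Mad2l1, the MAD2 protein that captures CDC20, was at 6.37, 8.10 and 7.72 log2 CPM in WT IQ3pos, 8.22 and 6.83 in R122C IQ3pos, 3.73, 5.97 and 5.91 in WT IQ3neg, and 5.67 and 6.69 in R122C IQ3neg. R122C IQ3neg replicate 2 lay above WT IQ3pos replicate 1, and the difference of 1.77 ± 0.53 (SE, adjusted p = 0.0834) did not pass. Ttk, the MPS1 kinase at the top of the checkpoint, was at 3.85, 5.77 and 4.02 log2 CPM in WT IQ3pos, 5.09 and 3.62 in R122C IQ3pos, 0, 1.43 and 1.91 in WT IQ3neg, and 0 and 3.22 in R122C IQ3neg. All IQ3pos libraries were above all IQ3neg libraries, yet the spread was wide and the difference of 3.09 ± 0.83 (SE, adjusted p = 0.0587) did not pass. Bub3, which also serves outside mitosis, separated narrowly without overlap, at 8.22 to 9.02 in IQ3pos and 6.33 to 8.14 in IQ3neg. Mad1l1 was listed at 0 in both WT replicate 1 libraries and overlapped, at 0 to 5.36 and 0 to 4.76.

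Every subunit of the chromosomal passenger complex passed, both averaged and in WT. Birc5, or survivin, was at 7.56, 8.38 and 8.36 log2 CPM in WT IQ3pos, 8.95 and 8.13 in R122C IQ3pos, 4.00, 5.82 and 5.72 in WT IQ3neg, and 6.05 and 6.77 in R122C IQ3neg. The lowest IQ3pos value of 7.56 lay above the highest IQ3neg value of 6.77, and the difference was 2.53 ± 0.41 (SE, adjusted p = 0.00579). Cdca8, or borealin, was at 6.85, 8.23 and 7.94 log2 CPM in WT IQ3pos, 8.70 and 7.56 in R122C IQ3pos, 1.76, 4.57 and 5.42 in WT IQ3neg, and 5.98 and 6.24 in R122C IQ3neg. Its difference was 2.89 ± 0.62 (SE, adjusted p = 0.0233), with WT IQ3neg replicate 1 far below the other libraries, and an exon overlaps one of the gene 9930104L06Rik on the opposite strand. Aurkb, the kinase of the complex, was at 4.64, 6.35 and 6.93 log2 CPM in WT IQ3pos, 6.11 and 6.19 in R122C IQ3pos, 0, 3.22 and 2.73 in WT IQ3neg, and 3.80 and 3.20 in R122C IQ3neg. Incenp, its scaffold and activator, was at 5.12, 5.19 and 4.68 log2 CPM in WT IQ3pos, 5.43 and 5.58 in R122C IQ3pos, 0.34, 2.50 and 2.24 in WT IQ3neg, and 3.49 and 2.26 in R122C IQ3neg. Neither overlapped between the fractions, and the differences were 3.32 ± 0.68 (SE, adjusted p = 0.0194) and 2.97 ± 0.58 (SE, adjusted p = 0.0158).

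Sgo1, the shugoshin that protects centromeric cohesin in mitosis, was at 5.76, 6.83 and 6.65 log2 CPM in WT IQ3pos, 6.99 and 5.89 in R122C IQ3pos, 1.69, 3.86 and 3.94 in WT IQ3neg, and 4.19 and 3.01 in R122C IQ3neg, a difference of 3.04 ± 0.54 (SE, adjusted p = 0.00951) without overlap. Sgo2a, its relative with a main role in meiosis, ranged from 2.18 to 6.70 in IQ3pos and from 0 to 3.74 in IQ3neg, overlapped and did not pass. Of the Ska complex, which keeps kinetochores on shrinking microtubules, Ska1 passed. It was at 3.57, 5.03 and 5.19 log2 CPM in WT IQ3pos, 5.69 and 4.93 in R122C IQ3pos, 0, 1.63 and 2.60 in WT IQ3neg, and 2.58 and 3.86 in R122C IQ3neg, with R122C IQ3neg replicate 2 above WT IQ3pos replicate 1, and differed by 2.64 ± 0.67 (SE, adjusted p = 0.0475). Ska2 did not overlap, at 4.50 to 6.83 in IQ3pos and 3.14 to 4.44 in IQ3neg, Ska3 overlapped and was at 0 in both WT replicate 1 libraries, and neither passed.

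The calls were not equally firm. Spc25, Oip5, Spc24 and Birc5 passed when averaged whichever library was left out, with adjusted p values of at most 0.0219, 0.0221, 0.0445 and 0.048 in limma. Sgo1 was lost only without R122C IQ3pos replicate 1 (adjusted p = 0.0683), and Cenpk and Nsl1 only without R122C IQ3pos replicate 2 or R122C IQ3neg replicate 1. The other 18 called genes lost the call in 3 to 8 of the 10 omissions, most often those of WT IQ3pos replicates 2 and 3 and of the R122C libraries. Pmf1, Cenpw and Cenpl, picked out after their values were seen, fell just outside at 0.0524 to 0.0543.

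Levels of different genes were set to the joined length of all exons annotated for each gene. That length can exceed the RNA made, so the order depends in part on annotation. In IQ3pos the highest of the 45 per kilobase were Spc25 at 6.87 ± 0.72, Birc5 at 6.51 ± 0.50, Spc24 at 5.85 ± 0.52 and Bub3 at 5.85 ± 0.38 log2 CPM per kb (SD, n = 5), and the lowest was Hjurp at 0.93 ± 1.35. Neighbours among these first 4 differed by less than the sum of their SDs. In IQ3neg the order began with Bub3 at 4.83 ± 0.74 and Zwint at 4.76 ± 0.36, followed by Birc5 at 3.91 ± 1.02 and Spc25 at 3.46 ± 0.88. Subunits of 1 complex were not level by this measure. In IQ3pos Ndc80 stood at 2.77 ± 0.39 and Nuf2 at 3.73 ± 1.16 log2 CPM per kb, below their partners Spc24 and Spc25.

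Libraries of the same genotype and title code can be set against each other as 5 pairs, of which the labels do not state that the mice were the same. The median of the 45 differences was 2.83, 2.57 and 2.37 log2 in the WT pairs 1, 2 and 3 and 2.37 and 1.33 in the R122C pairs 1 and 2. Higher in IQ3pos were 41, 44, 42, 43 and 43 genes in these pairs, where 42.3% to 54.6% of all tested genes were. In all 5 pairs 38 genes were higher, Cenpo and Cenpt were higher in 4, and Cenpc1, Mad1l1, Zw10, Ska3 and Hjurp in 3. The R122C pair 2 had the smallest median.

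**Figure D4:**
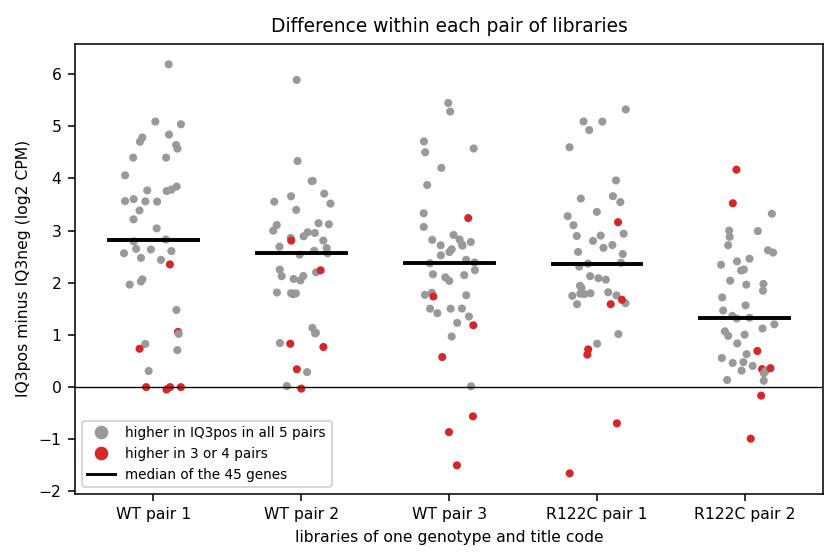
IQ3pos minus IQ3neg in log2 CPM for each of the 45 genes within each pair of libraries of 1 genotype and title code, with bars for the medians of 2.83, 2.57, 2.37, 2.37 and 1.33. Grey points are the 38 genes higher in IQ3pos in all 5 pairs, and red points the 7 that were higher in 3 or 4.

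Cell-type markers also moved with the sort. Averaged over the genotypes, 3 of 4 surface pit markers were higher in IQ3pos, and 2 of 2 chief, 4 of 4 enteroendocrine and 2 of 5 plasma cell markers were lower. Summed pit markers were at 12417 to 17722 CPM in IQ3pos and 1381 to 7701 in IQ3neg, chief markers at 10170 to 12949 and 38100 to 95148, and enteroendocrine markers at 185 to 462 and 10586 to 19131. Plasma cell markers were at 40.7 to 76.8 and 126 to 848 CPM. Most of the IQ3pos sum was Sdc1, which went the other way, at 5.35 to 6.26 log2 CPM in IQ3pos and 1.12 to 5.90 in IQ3neg. Jchain and Igha were at 0 in every IQ3pos library but WT replicate 1, and at 5.83 to 8.27 and 5.37 to 8.89 in IQ3neg. The pancreatic acinar list was at 3525 to 30636 and 96615 to 333257 CPM, nearly all of it Clps, with Cpa1 at 0 throughout. The 333257 CPM were in WT IQ3neg replicate 1, and the other IQ3neg libraries were at 96615 to 135271 CPM. The part of these markers in the kinetochore differences was not tested.

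No kinetochore gene passed between R122C and WT in either fraction. In IQ3pos 0 of 45 genes passed in limma (background 0% in both directions), and 1 had an unadjusted p under 0.05, where 930 of 17155 tested genes did. The median difference was 0.18 with 30 genes above 0, against 0 over all genes. The sign of this median turned with single libraries. It was -0.15 without WT IQ3pos replicate 1 and -0.15 without R122C IQ3pos replicate 1. It was 0.55 without R122C IQ3pos replicate 2, 0.43 without WT IQ3pos replicate 2 and 0.37 without WT IQ3pos replicate 3. With the title code as a term it was -0.25, against -0.15 over all genes, or -0.098 relative to them. The 1 gene with an unadjusted p under 0.05 was Zw10, singled out after its values were seen. Zw10 was at 5.02, 5.54 and 5.46 in WT IQ3pos and 2.95 and 3.64 in R122C IQ3pos, lower in both R122C libraries than in any WT library. Between the libraries that share a title code, 1 per genotype, the median was 0.14. Nuf2, Bub1, Zwint and Incenp were higher in both R122C IQ3pos libraries than in all WT ones, 4 of 45 genes beside 8.28% of all tested genes, and Zw10 alone was lower in both, beside 7.2%.

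In IQ3neg 0 of 45 genes passed and 4 had an unadjusted p under 0.05 in limma, where 629 of 17155 tested genes did. Those 4 were Oip5, Bub1, Cdca8 and Nuf2, each higher in R122C. The median difference was 0.54, with 38 of 45 genes above 0, against 0.07 over all genes. Relative to all genes this was 0.47. Without WT IQ3neg replicate 1 the median was 0.027, against -0.15 over all genes, or 0.17 relative to them. Without another library of this fraction the median was 0.68 to 0.92, or 0.57 to 0.91 relative to all genes. With the title code as a term it was 0.33, against -0.024 over all genes, or 0.36 relative to them. Between the 2 libraries that share a title code it was 0.058, against -0.080 over all genes, with 24 genes higher and 21 lower in R122C. Both R122C libraries lay above all 3 WT libraries for 8 of the 45 (Cenpn, Nsl1, Pmf1, Bub1, Cdca8, Birc5, Mis18a and Oip5), where 6.83% of all tested genes did, and 0 lay below, beside 6.77%. Among them, Bub1 was at 0, 3.22 and 2.47 in WT IQ3neg and at 4.14 and 4.79 in R122C IQ3neg, and Oip5 at 2.02, 2.92 and 1.85 and at 3.60 and 4.55. The median epithelial marker was higher in R122C IQ3neg by 0.65. Epithelial markers summed to 3099 CPM in WT IQ3neg replicate 1 but 8299 and 10172 in WT replicates 2 and 3, beside 8232 and 10997 in R122C IQ3neg. The part of the epithelial difference in the kinetochore genes was not tested.

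The difference between the fractions was not shown to depend on genotype. In the interaction 0 of 45 genes passed (background 0%) and 0 had an unadjusted p under 0.05 in limma, where 444 of 17155 genes did. The median interaction was a log2 difference of -0.61, smaller in R122C, with 33 genes below 0, against -0.13 over all genes. Without WT IQ3neg replicate 1 it was -0.043, against 0.16 over all genes, so that the median relative to all genes went from -0.48 to -0.20. It was -0.10 without R122C IQ3pos replicate 2, equal to that of all genes to 2 decimals, and -0.97 without WT IQ3pos replicate 1 and -0.96 without R122C IQ3pos replicate 1. The design with 2 R122C libraries a fraction leaves wide errors: for Oip5, the gene with the smallest p, the interaction was -1.43 ± 0.86 (SE, adjusted p = 1), with an interval from -3.30 to 0.43.

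Other genes of the same processes were described beside the 45. Of 22 further centromere, kinetochore and checkpoint genes, 6 were higher in IQ3pos when averaged and 0 lower, with a median of 1.49. Of 17 genes of the anaphase-promoting complex, the target of the checkpoint, 1 was higher, the E2 enzyme Ube2c at 3.38 (adjusted p = 0.00368), and the median was 0.67. Of 15 cohesin and separase genes 2 were higher, among them Cdca5, which keeps cohesin on chromosomes, at 2.86 (adjusted p = 0.0029), with a median of 0.72, and of 28 replication genes 5 were, with a median of 1.61. Calls beside the 25 of 45 kinetochore genes are given as counts, with no test of the difference between lists.

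The motifs printed above were counted in windows from 250 bases before to 50 after the start, of which RefSeq gave 45 for the 40 matched genes and 32851 in all. For 36 of those 45 windows, bases 11 to 30 after the start occurred in a transcript of the gene. CHR was searched as TTTGAA and, in a variant known from some promoters, as TTCGAA. The CCAAT box was searched by those letters, and an E2F motif as TTTCCCGC or TTTGGCGC, each on both strands. A CHR letter match lay anywhere in the window for 13 of the 20 genes called higher in IQ3pos and for 8 of the 20 not called, beside 19.2% of all windows. From 10 bases before to 50 after the start, a window chosen after the positions were seen, it lay in 11 of 20 called and 2 of 20 not called genes (Hjurp and Ttk), and in 2.95% of all windows. CCAAT within 150 bases before the start was found in 11 of 20 and 9 of 20, and in 24.9% of all windows. Both together occurred in 8 of the 20 called genes (Bub1, Bub1b, Cdca8, Cenpa, Cenpf, Cenpn, Oip5 and Spc25), in 1 of 20 not called (Ttk), and in 0.798% of all windows. The E2F motif was in 2 of 20 and 1 of 20, and in 1.56% of all windows. CHR and CCAAT matches can overlap, as after the start of Cdca8, and a match is a description of letters and not a bound site. Spc24, Nsl1, Ska1, Incenp and Aurkb were called but had no window.

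**Figure D5:**
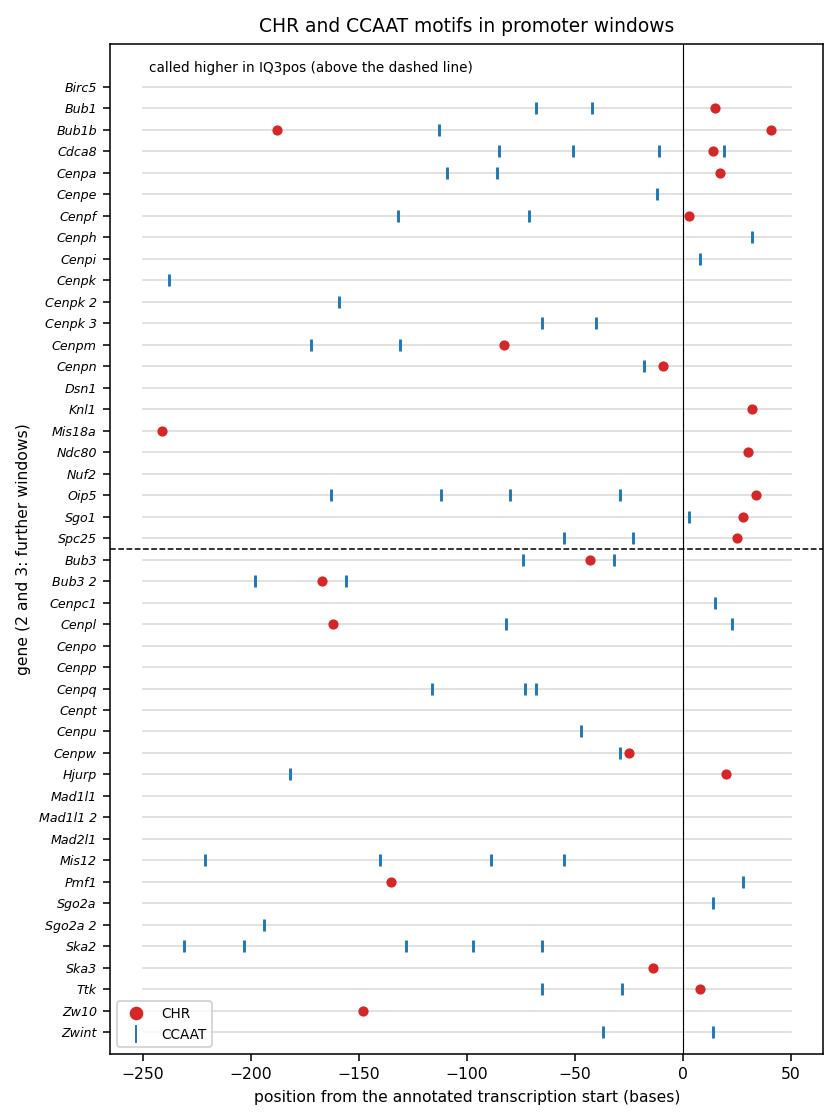
Position of CHR (red circles) and CCAAT (blue bars) matches on either strand, in bases from the annotated start, in each promoter window of the 40 matched genes, with called genes above the dashed line. Of the 20 called genes, 11 hold a CHR from 10 bases before to 50 after the start, against 2 of the 20 below the line. That stretch was chosen after the positions were seen, and anywhere in the window the counts are 13 and 8.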

How the data were processed

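RNA of 10 sorted corpus libraries was measured. The authors deposited 1 table of log2 CPM for 55276 genes, in which values below 1 CPM are listed as 0, read from the values. The submitters' processing notes name STAR 2.7.1a, featureCounts of Subread 2.0.0 and edgeR with GRCm38 (mm10), and scaling and strandedness are not stated there. Scaling totals were recovered from the CPM steps, and 0 columns were left out.

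The log2 values were fitted in limma 3.58.1 (R 4.3.3) with an intensity trend and 4 group means over all 10 libraries, for genes above 0 in at least 2, which left 17155 (6 residual and 6.01 prior degrees of freedom). All tests were two-sided, and p was adjusted by Benjamini-Hochberg over all genes tested, with a threshold of 0.05. Each replicate is a pool of mice, and the p-values reflect only how such pools vary. A count test was not run on log2 values. Differences are on the deposited log2 scale and understate those of genes near the floor.

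The 45 genes, their roles and the related lists were chosen with earlier results of these data known. Library values with differences are printed for genes called in any comparison and for a core of 12 (Cenpa, Hjurp, Cenpe, Cenpf, Ndc80, Knl1, Bub1, Bub1b, Mad2l1, Ttk, Birc5 and Aurkb), with the genes of smallest adjusted p from the related lists, of which 1 is not reported here. Loci and exon lengths are from GENCODE M21. Alternatives were no filter, a filter of 5 libraries, a pseudocount of 1 CPM, centred library medians, no trend, a replicate block, the title code as a term, and leaving out each library or both WT replicate 1 libraries. The fit was tested on simulated data.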

Additional observations from a re-analysis of the deposited data

How the results depend on the processing

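The number of kinetochore genes called higher in IQ3pos, 25 averaged over the genotypes and 14 in WT, ran from 5 to 27 and from 1 to 15 as each library was left out. The lowest averaged counts came without R122C IQ3pos replicate 2, and the lowest WT count without WT IQ3pos replicate 2, with 2 in WT without WT IQ3pos replicate 3 and 3 without WT IQ3neg replicate 2. With no filter on low genes they were 11 and 6. In R122C, where 0 passed, 1 gene passed with genes above 0 in at least 5 libraries, 1 with library medians centred and 2 without both WT replicate 1 libraries. Hjurp in R122C, a difference of 1.74 that did not pass, ran from -0.051 without R122C IQ3neg replicate 2 to 3.53 without R122C IQ3neg replicate 1. In 0 of these alternatives was a kinetochore gene called lower in IQ3pos, and no gene passed between the genotypes or in the interaction. Centring moved the median of all genes in WT from 0.16 to -0.16, and that of the 45 relative to all genes from 2.53 to 2.34. The causes of these changes were not tested.

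The main fit did not pair libraries by replicate number. Deviations of same-numbered libraries correlated at 0.162, 0.115 and 0.081 in WT, where each IQ3pos library correlated best with its own number. In R122C, with 2 libraries a fraction, both pairs give the same value by construction, 0.105. These values do not settle whether the libraries are paired. With a replicate block the calls were 29 averaged, 15 in WT and 1 in R122C.

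Genes below 1 CPM cannot be told from absent ones. The libraries with the smallest scaling totals, WT IQ3pos and IQ3neg replicate 1 at 47.4 M and 59.3 M, listed 3 and 16 of the 45 genes at 0. In WT IQ3neg replicate 1 the pancreatic acinar list took 333257 CPM, nearly all of it Clps, while Cela1 of that list was at 1.40 log2 CPM. The parts of depth and of this list in the 0 values were not tested.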
